A study of Mus musculus with 6 samples.

Results

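The genes described here are 35 antioxidant, glutathione and metallothionein genes, chosen by name from the 54532 genes of the table. They cover the NRF2 regulators, the glutathione and thioredoxin systems, superoxide dismutases, catalase, glutathione peroxidases, peroxiredoxins and the metallothioneins Mt1 and Mt2. All 35 were found once each in the table, and all 35 passed the filter on low counts. Their levels were compared between 3 muscle libraries of control mice and 3 muscle libraries of Igf2 cKO mice. Mice of both groups were on a C57BL/6 background and carried loxP sites around exon 2 on both alleles of Igf2, the gene of insulin-like growth factor 2. The Igf2 cKO mice or knockouts (Mck-Cre+; Igf2f/f) also carried Cre driven by the muscle creatine kinase promoter, which is active in muscle fibres, and the controls were littermates without Cre (Igf2f/f). Blood, vessel, fat and connective tissue cells in the tissue are outside that promoter's main activity. The labels name neither the muscle nor the age or sex. They give 3 mice per genotype without tying a library to an animal in words, so p-values measure the spread between these libraries. The title of the series concerns sarcopenia, the loss of muscle mass and function.

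Contracting muscle makes superoxide and hydrogen peroxide, mainly in mitochondria and at membrane NADPH oxidases. Superoxide dismutases turn superoxide into hydrogen peroxide, which catalase, glutathione peroxidases and peroxiredoxins remove with the help of glutathione and thioredoxin. The transcription factor NRF2 (Nfe2l2), held in check by KEAP1, raises many of these genes under oxidative or electrophilic stress. Metallothioneins are small cysteine-rich proteins that bind zinc and copper, and their genes respond to metals, oxidants and glucocorticoids.

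The libraries held between 16184371 and 17905203 counts, and the 35 genes together took 0.323% to 0.352% of them. The targeted gene checks little here, since Igf2 had 39 to 60 counts in controls and 33 to 42 in Igf2 cKO libraries, summed over the gene and over all cells of the tissue. The 10 fast fibre markers were abundant in every library, at a summed 81360 to 130600 CPM (a count scaled to a common library size by TMM), which bears out the tissue label. Slow fibre content differed between libraries. The summed level of the 8 slow fibre markers was 1370 to 1551 CPM in controls, but 542.2 and 544.1 CPM in Igf2 cKO replicates 1 and 3 and 2594 CPM in Igf2 cKO replicate 2. By edgeR 0 of these 8 were called over the 6 libraries, and without Igf2 cKO replicate 2 all 8 were called lower. Values of slow fibre genes thus rest on that library.

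None of the 35 genes passed the test, and the genes with the largest fitted differences were the metallothioneins. By edgeR with Benjamini-Hochberg adjustment 0 of 35 were called, where 0.249% of the 14867 genes tested were called (0.182% higher, 0.0673% lower). At an unadjusted p under 0.05 there were 4 (Mt1, Txn1, Gsr and Srxn1), all higher in Igf2 cKO muscle. That is 11.4% of the 35, near the 9.93% of all genes tested (5.11% higher, 4.82% lower). Without control replicate 1, or without replicate 1 of the knockouts, the number was 2, beside 8.3% and 9.41% of all genes tested. DESeq2 called 1 of the 35, Mt1, beside 1.57% of all genes with an adjusted p. By limma-voom 0 were called, beside 0.229% of all genes tested. The 3 libraries of one group lay apart from the 3 of the other for 4 genes (Mt1, Txn1, Gsr and Sod1), also all higher, or 11.4% against 15.5% of all genes (7.83% higher, 7.67% lower). When counts were divided by the plain library total instead, 6 lay apart (17.1%), again all higher, beside 15.7% of all genes (9.53% higher, 6.14% lower). The median log2 fold change (Igf2 cKO over control) of the 35 was 0.02, and that of all genes tested was 0.00380. Above 0 lay 21 of the 35 (60.0%), beside 50.8% of all genes.

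The fit gave narrow intervals for most of these genes. For 27 of the 35 (77.1%) the 95% interval of the log2 fold change lay wholly between -0.5 and 0.5, a change of less than 1.41-fold either way, beside 46.6% of all genes tested. The other 8 were Hmox1, Gss, Srxn1, Cat, Gpx3, Prdx4, Mt1 and Mt2, for which a larger change was not shut out by the interval. The shares of 77.1% and 46.6% were not matched for count level, so their difference shows no trait of the set. In bulk tissue, fewer cells of a type and less RNA per cell cannot be told apart.

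**Figure D1:**
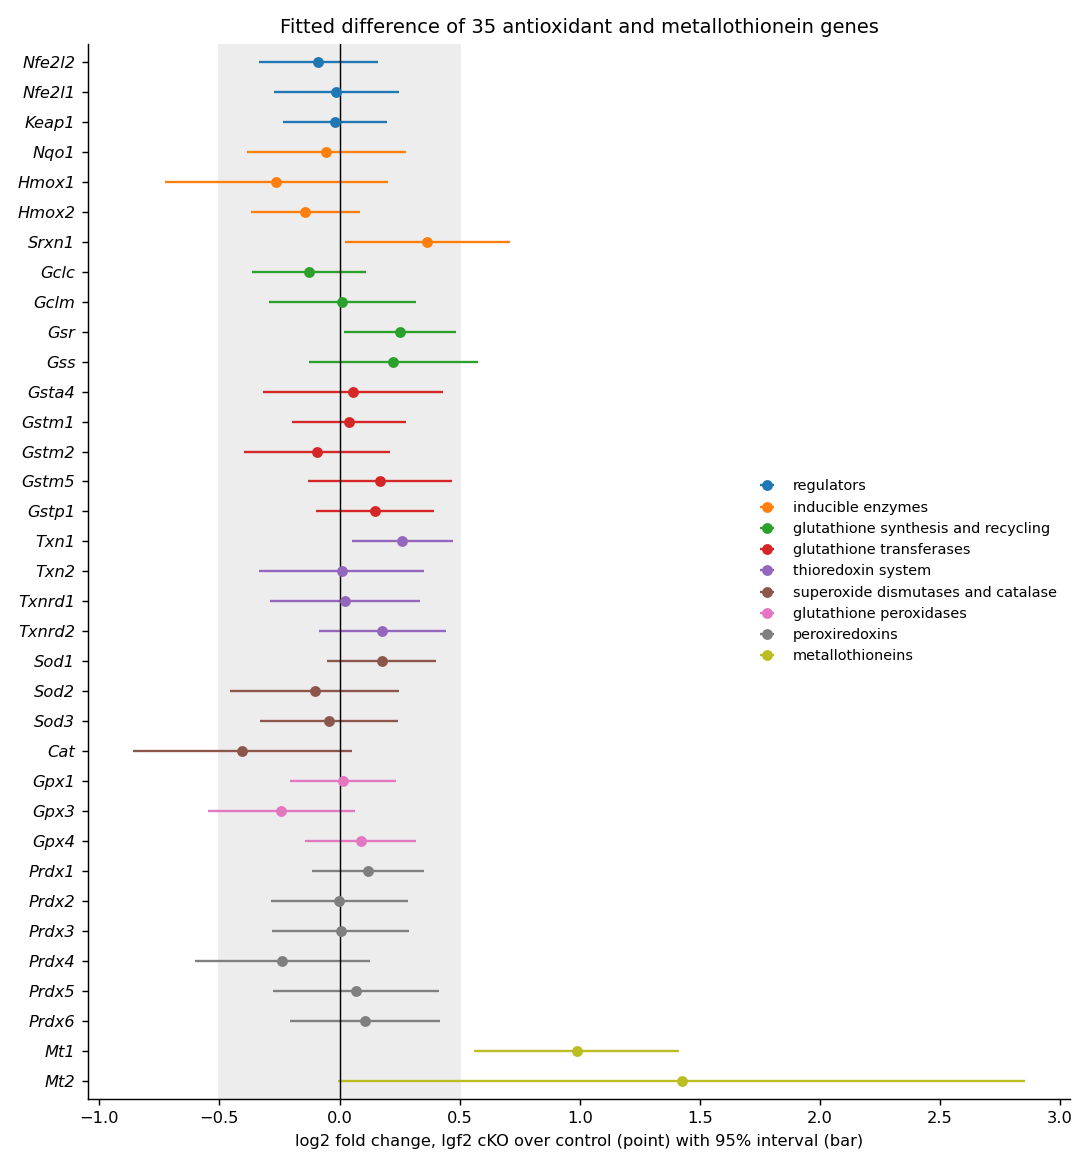
Fitted log2 fold change of each of the 35 genes (Igf2 cKO over control, point) with its 95% interval (bar), coloured by role, with the band from -0.5 to 0.5 shaded. The 2 metallothioneins lie farthest to the right (0.99 and 1.42), Cat farthest to the left (-0.40), and 27 intervals stay inside the band.

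Mt1 showed the largest difference relative to its error. Mt1 (ENSMUSG00000031765, chromosome 8, 94179082 to 94180327, plus strand, protein coding) and Mt2 (ENSMUSG00000031762, chromosome 8, 94172664 to 94173568, plus strand) lie 5513 bases apart, and both encode small metal-binding proteins. The upstream sequences are shown because these neighbours were the highest of the set in fold, with Gclm beside them as an NRF2 target whose fold change lay near 0. Each is the 250 bases before the RefSeq transcript start (GRCm38.p6), 5′ to 3′. Capitals mark matches, on either strand, to the metal response element core (TGCACNC or TGCGCNC), the antioxidant response element core (TGACNNNGC) and the palindromic glucocorticoid response element. The windows are chr8:94178839-94179088, chr8:94172368-94172617 and chr3:122245307-122245556, all on the plus strand.
Mt1: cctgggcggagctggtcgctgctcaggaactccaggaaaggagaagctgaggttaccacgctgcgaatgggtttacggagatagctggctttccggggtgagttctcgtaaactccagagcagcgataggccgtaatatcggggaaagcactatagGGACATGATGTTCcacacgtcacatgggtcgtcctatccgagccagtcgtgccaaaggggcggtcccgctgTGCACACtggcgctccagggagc
Mt2: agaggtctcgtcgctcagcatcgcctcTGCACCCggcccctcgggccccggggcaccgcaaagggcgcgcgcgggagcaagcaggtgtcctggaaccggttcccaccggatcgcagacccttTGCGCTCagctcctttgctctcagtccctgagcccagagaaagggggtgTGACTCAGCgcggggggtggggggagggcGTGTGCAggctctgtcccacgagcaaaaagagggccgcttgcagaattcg
Gclm: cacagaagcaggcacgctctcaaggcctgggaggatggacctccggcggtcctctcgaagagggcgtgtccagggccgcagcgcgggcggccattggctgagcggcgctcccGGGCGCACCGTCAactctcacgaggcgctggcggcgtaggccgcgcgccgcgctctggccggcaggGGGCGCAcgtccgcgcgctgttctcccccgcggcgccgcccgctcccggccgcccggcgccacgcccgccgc

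The Mt1 window held 1 metal response core, TGCACAC, at 23 to 17 bases before the start, and the 13-base glucocorticoid match GGACATGATGTTC at 94 to 82 bases before it. That glucocorticoid pattern occurs in 0.387% of 32851 such windows over all genes, and among the 41 windows of the 29 genes of this set found in the table it occurs in Mt1 alone. The Mt2 window held 3 metal response cores and 1 antioxidant core, TGACTCAGC, at 79 to 71 bases before its start. In the Gclm window an antioxidant core overlapped a metal response core, and a second metal response core stood nearer the start. These short cores are common. TGCACNC is found in 10.4%, TGCGCNC in 12.5% and TGACNNNGC in 10.2% of all windows, beside 12.2%, 14.6% and 17.1% of the windows of this set. A match is a description of letters and shows neither binding nor use. Only these 250 bases were searched, so cores past each RefSeq start or farther upstream are not counted. The number of cores in a window is thus not the number in the promoter.

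Mt1 gave 16.6, 22.7 and 17.7 CPM in the controls, by replicate 1 to 3. The knockouts gave 44.0, 41.0 and 27.96 CPM. Every Igf2 cKO library lay above every control, with Igf2 cKO replicate 3 nearest to them. The means were 19.0 ± 3.23 and 37.6 ± 8.50 CPM (SD, n = 3 each), so that the log2 fold change came to 0.99 ± 0.19 (SE), or 1.98-fold (95% interval 1.47 to 2.66). Its unadjusted p in edgeR was 0.000604, which ranked 81 among all genes, and its adjusted p was 0.111, so it failed the correction. DESeq2 gave an adjusted p of 0.000429 and edgeR without the low-count filter 0.000161. With 1 library left out, the log2 fold change ran from 0.86 to 1.16. In the authors' deposited table the comparisons of single libraries, for replicates 1, 2 and 3, put Mt1 at 1.41, 0.85 and 0.66 in log2 fold change.

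Mt2 was near the limit of detection. The controls gave 8, 12 and 1 counts, by replicate 1 to 3, against 29, 10 and 17 in the knockouts. Igf2 cKO replicate 2 lay below the highest control, so the groups overlapped. Its fitted log2 fold change was 1.42 ± 0.63 (SE; 95% interval -0.01 to 2.86, edgeR adjusted p = 0.507), an estimate that rests on few counts. Of the annotated Mt2 transcripts, 45.8% of the 50-base stretches are shared with Gm45774, annotated on the opposite strand, which had a mean of 7.33 counts. Without a stated strand setting, reads of the pair cannot be told apart. Mt2 was named after its values were seen, as were Cat and Hmox1 below.

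**Figure D2:**
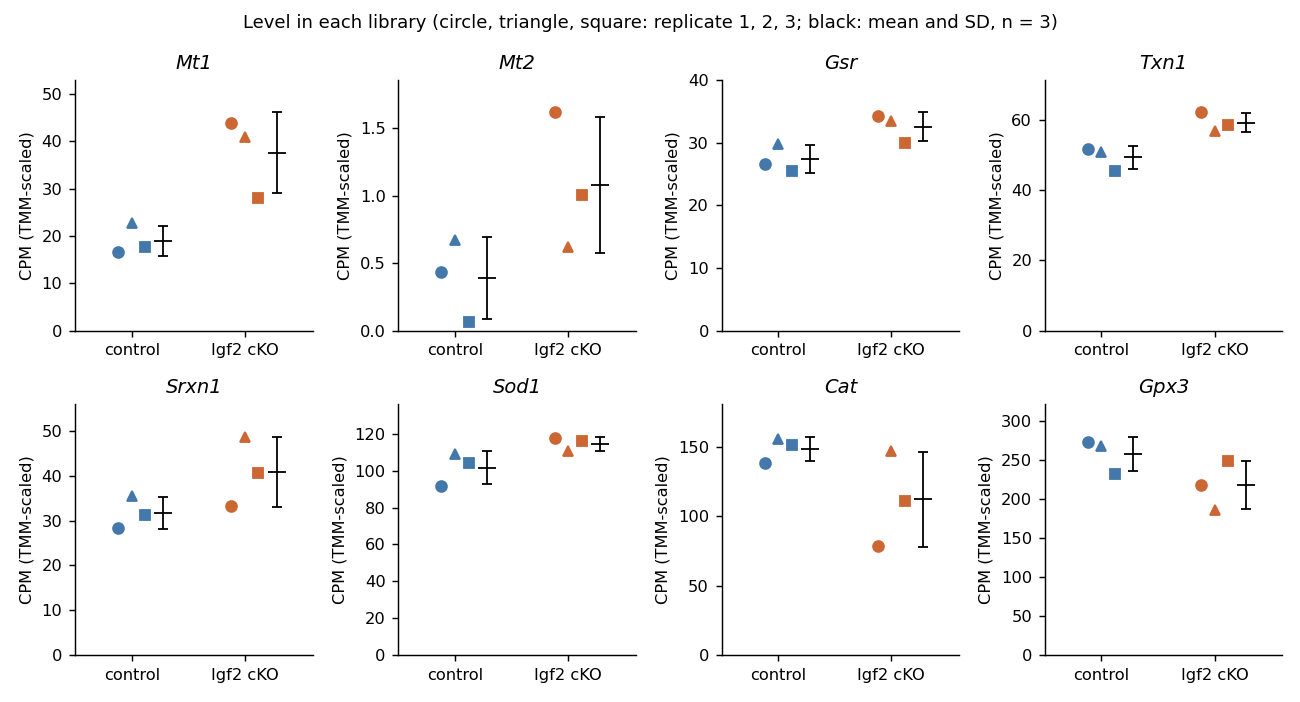
Level of 8 of the genes in each library, in TMM-scaled CPM on axes that start at 0. Coloured symbols are the libraries of replicate 1 (circle), 2 (triangle) and 3 (square), and black marks give the mean and SD of 3 libraries. Mt1, Gsr, Txn1 and Sod1 have all Igf2 cKO libraries above all controls, while Mt2, Srxn1, Cat and Gpx3 overlap.

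Other genes of metal handling gave no call either. Of 25 listed metallothionein, zinc and copper genes, 22 were tested and 0 were called, with a median log2 fold change of 0.01. The zinc importer gene Slc39a10 was at 0.40 ± 0.11 (SE, adjusted p = 0.244). Slc39a8, another importer of zinc and other divalent metals, was at -1.03 ± 0.33 (SE, adjusted p = 0.333), from 1.36 ± 0.256 CPM in controls to 0.666 ± 0.0454 CPM (SD, n = 3 each). Mtf1, the metal-sensing transcription factor that drives metallothionein genes, was at 24.5 ± 1.03 CPM in controls (SD, n = 3). It was chosen with its values in view, as was Slc30a1. Mtf1 spanned 23.3 to 25.1 CPM in controls and 24.9 to 27.8 CPM in Igf2 cKO libraries. Slc30a1, the zinc exporter it also drives, spanned 30.6 to 35.2 CPM in controls and 23.8 to 31.8 CPM in Igf2 cKO libraries. Mt4 had 0 counts in every library.

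Of the glucocorticoid-induced genes, a class to which Mt1 belongs, some were called higher. Without Mt1 and Mt2 the list held 17 genes, of which edgeR called 7 higher and 0 lower, with a median log2 fold change of 0.88. Over all genes tested, 0.182% were called higher. Of the 17, 16 lay above 0. At an unadjusted p under 0.05 edgeR gave 11, all higher, beside 5.11% of all genes. DESeq2 called 9 higher, with Per1 and Zbtb16 added, beside 1.57% of all genes in either direction. Without the low-count filter edgeR called 11 higher, with Per1, Klf15, Zbtb16 and Cebpd added, beside 1.07%. In the edgeR fit of the report the other 10 did not pass. Among them Pdk4 was at -1.13 (adjusted p = 0.637) and Klf9 at 0.01 (adjusted p = 0.984), both picked with their values in view. Without Igf2 cKO replicate 2 Pdk4 was called lower. Part of this list was already known to be higher in these libraries when it was drawn up, so it is no independent evidence. The 7 genes called in the edgeR fit of the report were Ddit4 (2.95), Tsc22d3 (1.502), Cdkn1a (1.23), Nfkbia (1.17), Cebpb (1.16), Sgk1 (0.97) and Glul (0.88), in log2 fold change. Their edgeR adjusted p lay between 1.62e-05 and 0.0318. Of these, Ddit4 kept its call with any 1 library left out, and the others lost theirs in at least 1 such fit. Without control replicate 1 the other 6 all missed the threshold, at adjusted p of 0.0503 (Cebpb) to 0.164 (Glul). Over the 6 libraries, the gene most like Mt1 among 51 compared (the other 34 of the set and these 17) was Gsr, with a Pearson correlation of log2 CPM of 0.97, followed by Zbtb16 (0.94), Cebpb (0.93) and Cebpd (0.92). Klf9 (0.03) and Pdk4 (-0.60) were unlike Mt1, and Gpx3 was lowest of all (-0.75). These 6 points carry the group difference and share their depth and scaling, so the correlations are descriptions.

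None of the 3 regulators passed the test, and their groups overlapped. Nfe2l2 (NRF2) was at a mean of 69.0 ± 7.45 CPM (controls) against 64.9 ± 4.53 CPM (Igf2 cKO; SD, n = 3 each), with a log2 fold change of -0.09 (95% interval -0.34 to 0.16). Keap1, its cytosolic inhibitor, was at -0.02 (95% interval -0.24 to 0.20). Nfe2l1, a related factor that induces proteasome genes, was the most abundant regulator. It gave 509.7, 511.3 and 576.1 CPM in the controls, by replicate 1 to 3, against 511.2, 535.1 and 536.1 CPM in the knockouts, so its groups overlapped almost fully. Its log2 fold change was -0.01 (95% interval -0.27 to 0.25).

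Of the inducible enzymes, Srxn1 stood highest and the classical NRF2 target Nqo1 lay near 0. Srxn1 (sulfiredoxin, which restores over-oxidised peroxiredoxins, chromosome 2, 152105516 to 152111376) gave 28.4, 35.6 and 31.1 CPM in the controls, by replicate 1 to 3. The knockouts gave 33.2, 48.7 and 40.7 CPM. Igf2 cKO replicate 1 lay within the control range and the other Igf2 cKO libraries lay above it. The log2 fold change was 0.37 ± 0.15 (SE, edgeR unadjusted p = 0.0397, adjusted p = 0.471), and it was 0.22 without Igf2 cKO replicate 2. Nqo1, a quinone reductase, was at -0.05 (95% interval -0.39 to 0.28). The heme oxygenases Hmox1, the inducible form, and Hmox2, the constitutive form, were at -0.26 and -0.14, with adjusted p of 0.739 and 0.698. Hmox1 gave 22.2, 18.3 and 12.8 CPM in the controls, by replicate 1 to 3, against 12.9, 14.3 and 17.3 CPM in the knockouts, so the groups overlapped.

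Among the genes of glutathione synthesis and recycling, Gsr was the one whose groups lay apart. Gsr (glutathione reductase, which regenerates reduced glutathione with NADPH, chromosome 8, 33652523 to 33698163) gave 26.6, 29.8 and 25.5 CPM in the controls, by replicate 1 to 3. The knockouts gave 34.3, 33.4 and 30.0 CPM. The lowest Igf2 cKO library and the highest control nearly touched, at 29.98 and 29.81 CPM. The log2 fold change was 0.25 ± 0.10 (SE), or 1.19-fold (unadjusted p = 0.0364, edgeR adjusted p = 0.46). Gclc and Gclm, the catalytic and modifier subunits of the rate-limiting ligase of glutathione synthesis, were at -0.13 and 0.01. Gss, glutathione synthase, was at 0.22 (adjusted p = 0.696). Gss overlaps the gene Acss2 on the opposite strand, whose counts were 359% of its own, so its value is uncertain without a stated strand setting. The same holds for Hmox2 beside Cdip1 (344%).

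The glutathione transferases, which attach glutathione to electrophiles, lay between -0.09 (Gstm2) and 0.17 (Gstm5) in log2 fold change, with adjusted p between 0.717 and 0.949. Gstm1 gave 162.1, 166.6 and 162.1 CPM in the controls, by replicate 1 to 3, against 173.7, 150.1 and 180.6 CPM in the knockouts. The Igf2 cKO libraries lay on both sides of the closely grouped controls. Gstp1 gave 68.4, 84.3 and 71.3 CPM in the controls, by replicate 1 to 3, against 80.2, 80.0 and 88.2 CPM in the knockouts, with overlapping groups. Of the 50-base stretches of Gstp1 transcripts, 33.7% also occur in its near copy Gstp2, so reads may have been split between the copies. The share in common with other genes was 18.9% for Gstm1. In the list of 39 other glutathione genes, 31 were tested and 0 were called by edgeR, with a median of 0.02. The transferase gene Gstt2 was at -0.41 ± 0.13 (SE, adjusted p = 0.331). Chac1, a glutathione-degrading enzyme induced by the unfolded protein response, was at -1.53 ± 0.66 (SE, adjusted p = 0.498). It was called at -3.00 without Igf2 cKO replicate 2 (edgeR adjusted p = 0.00212), and without the low-count filter (adjusted p = 0.0277). For Chac1 the controls stood at 124 ± 37.3 and the Igf2 cKO libraries at 43.1 ± 47.9 CPM (SD, n = 3 each).

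In the thioredoxin system, the cytosolic thioredoxin gene Txn1 was higher in every Igf2 cKO library. Txn1 (a small disulfide reductase, chromosome 4, 57943373 to 57956411, minus strand) gave 51.8, 50.7 and 45.6 CPM in the controls, by replicate 1 to 3. The knockouts gave 62.1, 56.9 and 58.6 CPM. The means were 49.4 ± 3.33 and 59.2 ± 2.69 CPM (SD, n = 3 each), so that the log2 fold change came to 0.26 ± 0.09 (SE), or 1.20-fold (unadjusted p = 0.0209, edgeR adjusted p = 0.39). Its partner Txnrd1, the cytosolic thioredoxin reductase, was at 0.02 (95% interval -0.29 to 0.34). The mitochondrial pair Txn2 and Txnrd2 was at 0.01 and 0.18, with adjusted p of 0.99 and 0.673. Among 23 other thioredoxin, selenoprotein and repair genes, 22 were tested and 0 called by edgeR, with a median of 0.04. Pdia6, a disulfide isomerase of the endoplasmic reticulum, came nearest at 0.50 ± 0.11 (SE, adjusted p = 0.162), from a control mean of 62.3 ± 7.25 CPM to 88.1 ± 4.72 CPM (SD, n = 3 each). DESeq2 called Pdia6 (adjusted p = 0.0155), as did edgeR without the low-count filter (adjusted p = 0.0414). Nxn, nucleoredoxin, was at 0.26 ± 0.12 (SE, adjusted p = 0.531). Txnip, the thioredoxin-binding alpha-arrestin, spanned 648 to 731 CPM in controls and 571 to 812 CPM in Igf2 cKO libraries, and was chosen with its values in view.

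Of the superoxide dismutases, Sod1 had groups that lay apart and none passed the test. Sod1, the cytosolic copper-zinc enzyme (chromosome 16, 90220754 to 90226329), gave 91.8, 109.0 and 104.0 CPM in the controls, by replicate 1 to 3, against 117.6, 110.5 and 116.1 CPM in the knockouts. The groups lay apart by a small margin. Sod1 overlaps Scaf4 on the opposite strand, which had 23.6% of its counts. The log2 fold change was 0.18 ± 0.10 (SE, edgeR unadjusted p = 0.113, adjusted p = 0.619). Sod2, the mitochondrial manganese enzyme, was at -0.10 (95% interval -0.46 to 0.25), and Sod3, the extracellular enzyme, was at -0.04 (95% interval -0.33 to 0.24).

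Cat (catalase, a peroxisomal enzyme that breaks down hydrogen peroxide, chromosome 2, 103453849 to 103485160, minus strand) had the lowest fold change of the set, through 1 library above all. It gave 138.4, 155.4 and 151.2 CPM in the controls, by replicate 1 to 3. The knockouts gave 78.3, 146.8 and 111.1 CPM. Igf2 cKO replicate 2 lay within the control range and replicate 1 far below it. Its fitted log2 fold change was -0.40 ± 0.20 (SE; 95% interval -0.86 to 0.05, edgeR adjusted p = 0.559). It was -0.20 without Igf2 cKO replicate 1 and -0.65 without Igf2 cKO replicate 2. The Igf2 cKO libraries low in Cat, replicates 1 and 3, are those low in slow fibre markers. With the slow fibre score as a covariate, an alternative added after the data had been seen, the log2 fold change of Cat was -0.25 (adjusted p = 0.632). Red cells also carry much catalase, and the summed erythroid markers were lower in Igf2 cKO libraries (400.7 to 426.7 CPM) than in controls (559.9 to 714 CPM). Of the 8 erythroid markers 7 were tested and 0 called by edgeR, 6 with an unadjusted p under 0.05, all lower. DESeq2 called 3 of them lower and edgeR without the low-count filter 4. The part of the erythroid markers in the Cat values was not tested.

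The mitochondrial members Sod2, Prdx3, Prdx5, Txn2 and Txnrd2 had a largely similar order of libraries, with none of them called between genotypes. Relative to each gene's mean, the 5 averaged -0.19, 0.04 and 0.11 log2 in the controls, by replicate 1 to 3, against -0.13, 0.23 and -0.06 in the knockouts. All 5 were above their mean in Igf2 cKO replicate 2, the library highest in slow fibre markers, and all 5 were below it in control replicate 1, the library next highest in slow fibre markers (0.511 on the same scale). A set of 6 cytosolic members had the same extremes, averaging 0.158 in Igf2 cKO replicate 2 and -0.138 in control replicate 1. Prdx5 was at 133 CPM in Igf2 cKO replicate 2 and at 89.4 CPM in control replicate 1, and Txn2 at 175 and 128 CPM. Both were picked with their values in view, as was Prdx6 below. Over the 6 libraries the Pearson correlation between pairs of these genes had a median of 0.81 (10 pairs, 0.016 to 0.97), as a description of points that share depth and scaling. Of the 35 genes, 10 were highest in Igf2 cKO replicate 2 and 11 were lowest in control replicate 1. The same counts were not made over all genes, so these show no trait of the set. The part of fibre makeup in these values was not tested beyond the covariate fit. That fit called 0 of the 35, beside 0.383% of all genes.

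**Figure D3:**
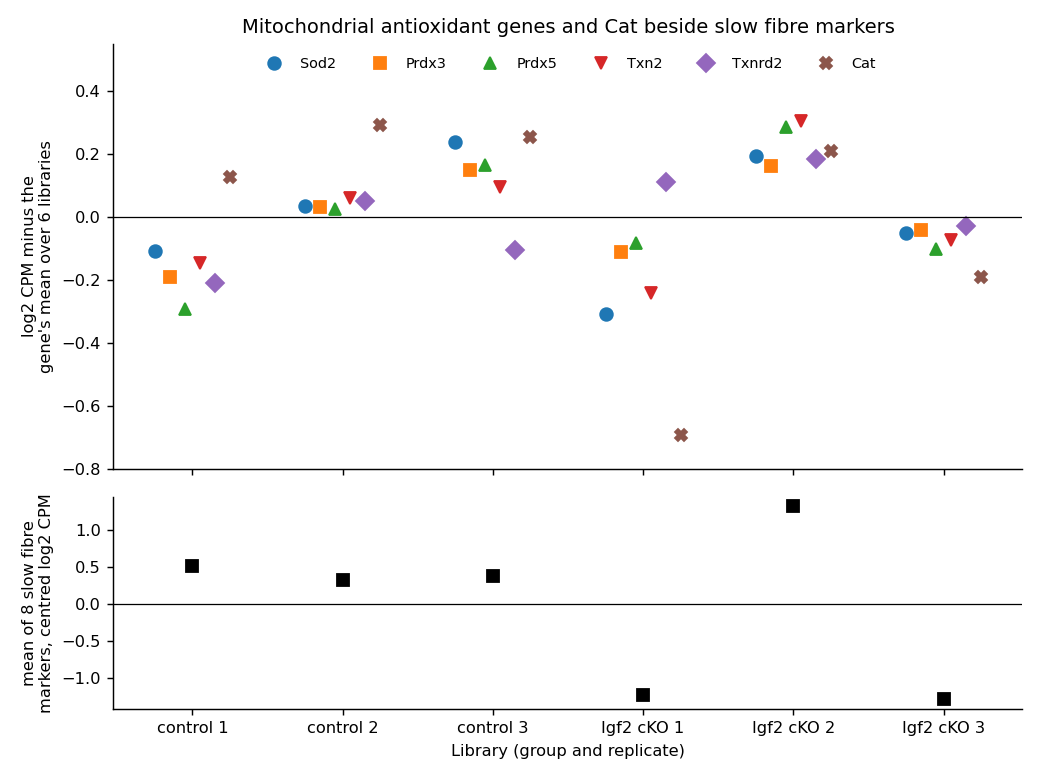
Upper panel, log2 CPM of 5 mitochondrial antioxidant genes and Cat in each library, minus the gene's mean over the 6 libraries. Lower panel, the mean of 8 slow fibre markers on the same kind of scale. Igf2 cKO replicate 2 is high for all 5 mitochondrial genes and for the slow fibre markers (1.32), and Cat is lowest in Igf2 cKO replicate 1.

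The glutathione peroxidases, which reduce peroxides with glutathione, held the most abundant members by length-scaled level. Gpx3, the secreted form, gave 273.2, 267.5 and 232.2 CPM in the controls, by replicate 1 to 3, against 218.3, 186.3 and 248.7 CPM in the knockouts. Igf2 cKO replicate 3 lay above the lowest control, so the groups overlapped. The log2 fold change of Gpx3 was -0.24 ± 0.13 (SE, 95% interval -0.55 to 0.06, edgeR adjusted p = 0.614). Gpx3 is also made by fat cells, and the summed adipocyte markers spanned 2983 to 3860 CPM in controls and 2409 to 5003 CPM in Igf2 cKO libraries, lowest in Igf2 cKO replicate 2 and highest in Igf2 cKO replicate 3, as for Gpx3 within that group. The part of the adipocyte markers in the Gpx3 values was not tested. Gpx4, which protects membranes from lipid peroxidation, gave 200.3, 217.5 and 225.7 CPM in the controls, by replicate 1 to 3, against 218.3, 237.6 and 228.2 CPM in the knockouts. The groups overlapped (log2 fold change 0.09, 95% interval -0.14 to 0.32). Of the 50-base stretches of Gpx4, 34.7% are shared with the pseudogene Gpx4-ps2, which had a mean of 816 counts, so the counts of Gpx4 may be incomplete. Gpx1, the cytosolic form, was at 0.02 (95% interval -0.21 to 0.24).

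The peroxiredoxins, abundant thiol peroxidases, lay between -0.24 (Prdx4) and 0.12 (Prdx1). Prdx3, the mitochondrial form, gave 137.7, 160.6 and 174.5 CPM in the controls, by replicate 1 to 3, against 145.6, 176.0 and 152.6 CPM in the knockouts. The groups covered the same range, and the log2 fold change was 0.0047 (95% interval -0.28 to 0.29). Prdx2, abundant in red cells, was at -0.0013, and Prdx5 and Prdx6 were at 0.07 and 0.11. Prdx4, the form of the endoplasmic reticulum, was at a mean of 12.8 ± 2.35 CPM (controls) against 10.8 ± 0.745 CPM (Igf2 cKO; SD, n = 3 each, adjusted p = 0.684). Prdx6 stood at 123 CPM in Igf2 cKO replicate 2 and at 87.6 to 96.0 CPM in the other 5 libraries.

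Levels between genes were compared by the authors' FPKM (counts scaled by listed gene length and library size). The order of the 6 highest means over the libraries was Gpx3 (130), Gpx4 (128), Gstm1 (112), Prdx3 (106), Gstp1 (103) and Nfe2l1 (96.8). In controls Gpx3 was at 141 ± 12.0, Gpx4 at 124 ± 7.56 and Gstm1 at 110 ± 1.74 FPKM (SD, n = 3 each). Prdx3 at 106 ± 12.6, Gstp1 at 98.0 ± 11.1 and Nfe2l1 at 97.2 ± 6.997 FPKM (SD, n = 3 each) each lay within 1 SD of the gene above it in the order. At the low end stood Mt2 (1.24), Gss (1.98), Txnrd2 (3.90) and Gclc (4.94). Mt1 was at 15.1 ± 2.57 FPKM in controls and 30.0 ± 6.66 FPKM in Igf2 cKO muscle (SD, n = 3 each). The listed length of Mt1, 1246 bases, is its whole genomic span, so its FPKM is set by introns as well. That understates Mt1 beside genes whose listed length leaves introns out. The listed length of Gpx1, 1441 bases, is likewise its whole span. Listed lengths ran from 588 bases (Mt2) to 10008 bases (Sod2), with Sod1 at 3970. How much intron sequence they hold in the other genes was not tested, so the order by FPKM rests on them. By CPM, which leaves length out, Nfe2l1 (532) and Sod2 (291) stood above Gpx3 (258) in controls. On the FPKM scale, and with these limits, Mt1 stood 23-fold above Mt2 in controls.

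**Figure D4:**
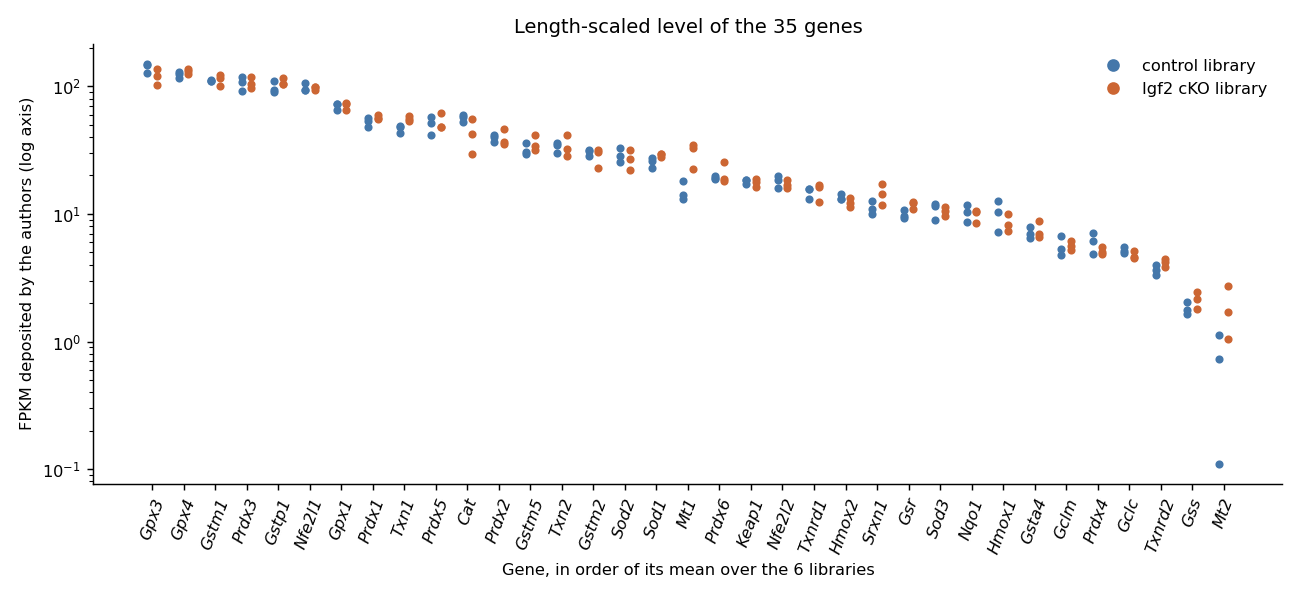
The authors' FPKM of each of the 35 genes in the 6 libraries, on a log axis, in order of the mean. The genes run from 130 (Gpx3) to 1.24 (Mt2), and the Igf2 cKO points of Mt1 (mean 30.0) lie above its control points (mean 15.1).

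The rest of the NRF2 pathway gave the same count. Of 29 listed partners and targets 27 were tested and 0 called, with a median of 0.10 and 20 above 0. Mafg, a small Maf partner of NRF2, was at 0.28 ± 0.09 (SE, adjusted p = 0.331), and Ugdh, which makes the sugar donor of glucuronidation, at 0.53 ± 0.17 (SE, adjusted p = 0.353). Slc7a11, the cystine importer, reached no more than 12 counts per library, too few for the test. Among 17 genes of oxidant sources, 15 were tested and 0 called, with a median of -0.12. Xdh, xanthine dehydrogenase, was at 0.48 ± 0.14 (SE, adjusted p = 0.276), and Nos2, the inducible nitric oxide synthase, at -0.49 ± 0.17 (SE, adjusted p = 0.372). Cybb, the phagocyte NADPH oxidase, was at -0.75 ± 0.30 (SE, adjusted p = 0.45), and the summed macrophage markers spanned 321.5 to 651.6 CPM in controls and 381.8 to 543.5 CPM in Igf2 cKO libraries. Cybb was named after its values were seen.

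Markers of other cells and of fibre types gave 0 calls in each list by edgeR over all 6 libraries, and their part in the values above was not tested beyond the slow fibre fit. Of 12 adipocyte markers 11 were tested, with a median log2 fold change of 0.69, a median SE of 0.72 and all 11 above 0. The summed level of the 12 overlapped between groups, at 2983 to 3860 CPM in controls and 2409 to 5003 CPM in Igf2 cKO libraries. It was lowest in Igf2 cKO replicate 2 and highest in Igf2 cKO replicate 3. Thrsp was at 0.96 and Pck1 at 2.43, with edgeR adjusted p of 0.19 and 0.308. Without the low-count filter edgeR called both of these, Acta2 and Cnn1 higher, and Hbb-bs, Hba-a1, Hbb-bt, Alas2, Cldn5 and Fap lower. DESeq2 called Thrsp and Acta2 higher and Hbb-bs, Hba-a1 and Hbb-bt lower, and the slow fibre fit called Acta2. Ucp1, which marks brown fat, had 0 counts in every library. Among the erythroid markers Hbb-bs was at -0.65 (adjusted p = 0.194) and Hba-a1 at -0.55 (adjusted p = 0.201). Of the 8 endothelial markers 3 had an unadjusted p under 0.05, all lower, and the summed level was 1382 to 1628 CPM in controls and 1014 to 1432 CPM in Igf2 cKO libraries. Cldn5 was at -0.61 and Egfl7 at -0.26. Of the 7 smooth muscle and pericyte markers 3 had an unadjusted p under 0.05, all higher, with Acta2 at 0.80 (adjusted p = 0.0956) and Cnn1 at 1.09, and a summed 1536 to 1676 CPM in controls and 1550 to 1911 CPM in Igf2 cKO libraries. The 8 fibroblast markers summed to 3558 to 8161 and 4304 to 6278 CPM, with Fap at -0.52 and Pi16 at -0.49. Among the 8 macrophage markers none had an unadjusted p under 0.05, with Lyz2 at -0.36 and Cd68 at -0.33. Neutrophil markers were close to absent, at a summed 1.635 to 3.692 CPM in controls and 1.227 to 2.601 CPM in Igf2 cKO libraries, with Mpo at 0 in every library, S100a9 at -0.34 and S100a8 at 0.13. The slow fibre genes Myh7 and Atp2a2 were at -0.55 and -0.18, and without Igf2 cKO replicate 2 they were called at -2.35 (edgeR adjusted p = 0.00212) and -0.99 (adjusted p = 0.0143). The fast fibre genes Myh4 and Mylpf were at -0.54 and -0.21.

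By the authors' deposited table, 0 of the 35 genes passed an adjusted p under 0.05 in any of the 3 comparisons of single libraries, which called 95, 72 and 149 genes over the whole table. At an unadjusted p under 0.05 the authors' deposited table gave Cat, Mt1 and Mt2 in the comparison of replicates 1, Mt1 in that of replicates 2 and Mt2 in that of replicates 3. Those are 3, 1 and 1 of the 35, where 5.34%, 5.06% and 4.67% of all genes with a value in the authors' deposited table passed. The authors' deposited table had Mt2 at log2 fold changes of 1.89, -0.12 and 3.79, and Cat at -0.82, -0.08 and -0.44, in that order. Each of these comparisons held 1 library per group, so its p-values measure no spread between libraries of a group.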

How the data were processed

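Muscle RNA of control and Igf2 cKO mice was sequenced, in 3 libraries per group. The labels give 3 mice per genotype without tying a library to an animal in words. Total RNA came from a Trizol extraction and a service company did the Illumina sequencing, per the labels' protocols. That extraction text speaks of treated cells, whereas the titles, source and tissue labels say muscle tissue, which is followed here. The aligner, the counter, the strand setting, the annotation and the build were each not given in the sources used here. In the table the authors deposited, the headers name whole-number counts and the authors' FPKM per gene. It also gives the authors' log2 fold changes with p-values and adjusted p-values for 3 comparisons of single libraries. Another 6 columns of per-sample values with other names were not used. Coordinates are those of the table. All 35 gene identifiers occur in GENCODE release M21 (GRCm38) under the same symbol.

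Counts were tested with edgeR 4.0.16 in R 4.3.3 (quasi-likelihood F test, TMM factors, filterByExpr, genotype as the single term). P-values were adjusted by Benjamini-Hochberg over the 14867 genes tested, with 0.05 as the limit on the adjusted p for a call. The standard error comes from the F statistic. CPM are counts over TMM-scaled library sizes. Depth was 16184371 to 17905203 counts per library. The fit was first tested on simulated counts. Members, lists and the naming rule were chosen with earlier results of these data known. Per-library values are given for members with an unadjusted p under 0.05 or groups that do not overlap, and for the 6 highest by FPKM. From each other list the called genes, or else the 2 with the smallest p, are named. Further genes are marked as chosen after their values were seen. Alternatives were other size factors (RLE, upper quartile), no filter, a floor of 1 CPM reached by 3 libraries, limma-voom (limma 3.58.1), DESeq2 1.42.0, a replicate block, looser thresholds, FPKM with a pseudocount of 0.1, and each library left out. A further fit, chosen with the data in view, had a slow fibre score as covariate. The likeness to Mt1 used log2 CPM with a prior count of 2.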

Additional observations from a re-analysis of the deposited data

How the results depend on the processing

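Mt1 was called in 2 alternatives. Without the low-count filter edgeR called 1 of the 35, and 282 genes or 1.07% of all. DESeq2 called 1 of the 35, and 220 genes or 1.57% of all with an adjusted p. In every other alternative fit 0 of the 35 were called at an adjusted p under 0.05, beside 0.0529% to 0.448% of all genes. Over all 6 libraries in the edgeR fit of the report, an adjusted p under 0.1 gave 0, and so did the series' own rule of p below 0.05 and a log2 fold change beyond 1 either way. In other fits these looser rules passed Mt1, Mt2 or both. Mt1 had an adjusted p of 0.0822 with the replicate block, 0.0529 without Igf2 cKO replicate 3 and 0.0969 with the slow fibre covariate, and the series' rule passed both genes without control replicate 2. With 1 library left out, the number at an unadjusted p under 0.05 ran from 2 to 4, beside 7.25% to 10.6% of all genes. It was 2 on leaving out replicate 1 of the controls, or replicate 1 of the Igf2 cKO libraries. The fits with 1 library left out called 8 to 68 genes in all. The cause was not tested. The replicate block, with the replicate number as a term, gave 0 of the set called and 5 at an unadjusted p under 0.05. Over all genes it called 35 and put 10.5% under that p. Same-numbered libraries had correlations of 0.163, 0.0581 and -0.0425 in their deviations, and the others had -0.183 to 0.122. These few values cannot settle whether the numbers pair the samples, which the labels do not say. Under the block Tsc22d3 and Glul lost their calls, at adjusted p of 0.057 and 0.0628. Fold changes near 0 changed sign. Txn2 was at -0.0075 with upper quartile factors, -0.0046 with limma-voom and -0.0052 with the replicate block. Prdx3 was at -0.011 with upper quartile factors, and with the slow fibre covariate Gstm1 was at -0.040 and Atp2a2 at 0.11. Atp2a2 is itself part of the slow fibre score, so its value in that fit is circular. With each library left out in turn the log2 fold change ran, for Txn2 from -0.16 to 0.12, Prdx3 from -0.084 to 0.086, Prdx5 from -0.070 to 0.17, Nfe2l1 from -0.051 to 0.049, S100a8 from -0.20 to 0.69, Sod2 from -0.24 to 0.014, S100a9 from -0.72 to 0.065, Atp2a2 from -0.99 to 0.12 and Gstm1 from -0.016 to 0.11. With a CPM of at least 1 in 3 libraries Mt2 was not tested. The counts of Mt2 and of the neutrophil markers limit what their values can show.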

Other observations

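Nnt, the mitochondrial transhydrogenase that supplies NADPH to glutathione reductase and thioredoxin reductase, was near absent from every library: the controls gave 5, 9 and 15 counts, by replicate 1 to 3, and the knockouts 9, 5 and 2, too few to test. It was chosen with its values in view.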
